A study of Mus musculus with 26 samples.

Results

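The genes described here are 57 ligands and receptors of axon guidance, out of 26180 genes with a RefSeq start site in the mouse genome (mm10). They were listed by family. The 7 ephrins are Efna1 to Efna5, Efnb2 and Efnb3, and the 14 Eph receptors are Epha1 to Epha8, Epha10, Ephb1 to Ephb4 and Ephb6. The list further holds 15 semaphorins, 8 plexins and neuropilins, 3 Slits, 3 Robos, 2 netrins and 5 netrin receptors. A gene was taken as measured in a table when 1 of its regions overlapped 1.5 kb either side of a start site of the gene, and the region with the most overlap was used. No read count or test entered that choice of region. The members themselves were listed with earlier results of these data known.

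During development these proteins steer growing axons and migrating cells. Ephrins are bound to the membrane and signal to Eph receptor tyrosine kinases on the touching cell; semaphorins act through plexins, often with a neuropilin as co-receptor; secreted Slits repel axons through Robo receptors; netrins attract through Dcc and repel through Unc5 receptors. In pluripotent cells most such genes are silent, and promoters of silent developmental genes are the typical place of bivalent chromatin, in which H3K4me3, a mark of active promoters, and H3K27me3, a mark set by Polycomb, sit on the same nucleosome. Dppa2 and Dppa4 encode a pair of interacting small DNA-binding proteins of pluripotent cells.

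Sequential chromatin immunoprecipitation (reChIP) was run on mouse embryonic stem cells grown in serum and LIF, with the same number of cells in each experiment. The order K4-K27 means that chromatin pulled down with the H3K4me3 antibody was pulled down again for H3K27me3, and K27-K4 is the reverse order. Total H3K4me3 and total H3K27me3 are libraries of a small part of the material, set aside after the first pull-down. The study describes these totals as noisier, likely because of less starting material, and could not call many peaks from them in E14. A missing or weak total signal therefore need not mean a missing mark. The groups were E14 cells (2 replicates, in different batches), wild-type clones 57 and 58 (WT), and clones 43 and 53 that lack both Dppa2 and Dppa4 (DKO), each with all 4 ChIPs, plus 1 IgG-IgG reChIP in E14 and 1 in WT clone 57. Each WT or DKO replicate is 1 clonal line, so that a genotype is represented by 2 clones and a peculiarity of a clone counts as part of the spread. Cross-reaction with H3K4me2 is known for the H3K4me3 antibody. The 26 libraries held 6741244 to 47903462 reads. Values are log2 RPM per kb (reads of a region scaled to the depth of the library and the length of the region), without subtraction of IgG-IgG. A lower value can mean fewer cells with the mark or fewer marked nucleosomes per cell, which such bulk values cannot tell apart.

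Nearly all members carried a reChIP region over a start site. In E14 cells 56 of 57 had one in K4-K27 (98.2%, against 58.7% of all genes) and 57 of 57 in K27-K4 (against 66.2%), and Epha2, a receptor also known from epithelia, was the member without a K4-K27 region. Total H3K4me3 regions lay over 40 members (70.2%, against 53.2% of all genes) and total H3K27me3 regions over 20 (35.1%, against 12.1%). In the WT clones the counts were 56 in K4-K27, 53 in K27-K4, 53 in total H3K4me3 and 28 in total H3K27me3, where 59.4%, 33.7%, 60.2% and 15.8% of all genes had a region. In the DKO clones they were 53, 50, 47 and 31, and the all-gene shares 57.8%, 32.1%, 56.1% and 17.6%. Slit1 and Dcc had no region in either DKO reChIP table, while both had one in both WT reChIP tables. Sema3b, Unc5c, Epha2 and Ephb3 had a region in both WT reChIP tables and in 1 of the 2 DKO tables. Sema4a had none in WT. Of 19 further guidance ligands and receptors outside the list, 13 had an E14 region in K4-K27 and 18 in K27-K4. In the E14 totals 14 of them had one in H3K4me3 and 2 in H3K27me3. The high shares of the members may thus in part reflect which genes were listed.

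The sequence just upstream of the start sites was read from the RefSeq promoter table (GRCm38.p6), in which 47 of the 57 members were matched with 60 promoters. Over the 250 bases before the start site the member promoters held a median of 16 CpG dinucleotides (range 0 to 46), against 6 over all 32851 promoters in the table, and a median GC content of 64.2% against 52.4%. The letters GGGCGG (the GC box, either strand) were found in 43 of 60 member promoters (71.7%) and in 32.7% of all. Members differed widely among themselves. Slit1, Dcc, Plxna4, Unc5d, Sema3f, Efnb3, Ntn1, Sema6a, Sema3b and Plxna1 were not matched. Of the matched members described below, the upstream Sema6d promoter and Epha8 had low values in DKO clones. Efna4 and Efna1 are ephrins with differences above 0. Sema3e had the highest E14 reChIP enrichment over IgG-IgG, which was low in its region. These 5 are printed as examples of different reChIP values. Each runs 5′ to 3′ on the strand of the gene and ends just before the start site it belongs to, except that the upstream Sema6d and Epha8 windows stop short of it, since bases in an annotated exon were left out; capitals mark CpG. Efna1 has start sites at 89280951 and 89279645, and its window precedes the second of these and so lies inside the gene.

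Sema6d upstream promoter, chr2:124089719-124089942, plus strand: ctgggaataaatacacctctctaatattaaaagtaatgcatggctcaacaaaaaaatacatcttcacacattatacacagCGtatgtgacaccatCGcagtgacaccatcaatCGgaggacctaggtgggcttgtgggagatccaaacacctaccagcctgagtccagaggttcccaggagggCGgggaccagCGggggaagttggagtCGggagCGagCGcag
Epha8, chr4:136956860-136957066, minus strand: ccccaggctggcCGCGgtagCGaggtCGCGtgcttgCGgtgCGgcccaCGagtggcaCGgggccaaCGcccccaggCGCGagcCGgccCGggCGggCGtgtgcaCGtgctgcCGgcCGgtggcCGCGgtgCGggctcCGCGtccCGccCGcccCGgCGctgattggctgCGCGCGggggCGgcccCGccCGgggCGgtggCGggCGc
Efna4, chr3:89338029-89338278, minus strand: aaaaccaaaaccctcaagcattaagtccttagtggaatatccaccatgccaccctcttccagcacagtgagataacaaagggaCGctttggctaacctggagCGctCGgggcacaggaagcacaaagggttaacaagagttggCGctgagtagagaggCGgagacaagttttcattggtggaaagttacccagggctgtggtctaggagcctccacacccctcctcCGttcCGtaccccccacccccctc
Efna1, chr3:89279646-89279895, minus strand: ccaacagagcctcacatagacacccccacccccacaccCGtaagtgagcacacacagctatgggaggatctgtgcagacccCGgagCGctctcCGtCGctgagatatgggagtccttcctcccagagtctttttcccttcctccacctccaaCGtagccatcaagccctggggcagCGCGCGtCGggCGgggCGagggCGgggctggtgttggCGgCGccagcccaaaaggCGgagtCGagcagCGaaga
Sema3e, chr5:14025026-14025275, plus strand: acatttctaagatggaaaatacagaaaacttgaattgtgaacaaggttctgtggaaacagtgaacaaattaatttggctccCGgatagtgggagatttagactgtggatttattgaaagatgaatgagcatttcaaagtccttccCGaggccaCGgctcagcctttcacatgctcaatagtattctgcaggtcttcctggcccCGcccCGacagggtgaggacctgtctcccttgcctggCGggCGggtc

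The Epha8 window is the densest of the 5, with 37 CpG in 207 bases and 5 matches to GGGCGG. The upstream Sema6d window holds 8 CpG in 224 bases and 1 match, Efna4 7 CpG in 250 bases and none, Efna1 18 in 250 and 2, and Sema3e 7 in 250 and 2. A match describes the letters in the window and is no evidence of a bound factor.

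In E14 cells the members stood above IgG-IgG in both orders of reChIP and, in their medians, above the genes at large. The median enrichment (value minus IgG-IgG in the same region, mean of 2 replicates) was 2.35 in K4-K27, against 1.41 over all 15363 genes with a region, and 2.94 in K27-K4, against 2.15 over 17321 genes. The member medians of the single replicates were 2.16 and 2.63 for K4-K27, then 2.30 and 3.64 for K27-K4. Both replicates lay above IgG-IgG for 55 of 56 members in K4-K27, with Efna4 the exception, where they did for 11345 of 15363 genes. In K27-K4 this held for 57 of 57 members, but also for 17011 of 17321 genes. The 19 further guidance ligands and receptors, read in the same way, had medians of 2.39 in K4-K27 (13 with a region) and 2.61 in K27-K4 (18 with a region), so in K4-K27 the members were not above them. In the total libraries the members were not set apart in the same way: the median was 1.36 in total H3K4me3, against 1.65 over all genes, and 1.29 in total H3K27me3, against 1.35. Per the study's methods regions were called as enriched over IgG-IgG; where that holds for the deposited regions, a value above IgG-IgG is partly set by the choice of regions, for members and for all genes. With 1 IgG-IgG library no test was made.

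**Figure D1:**
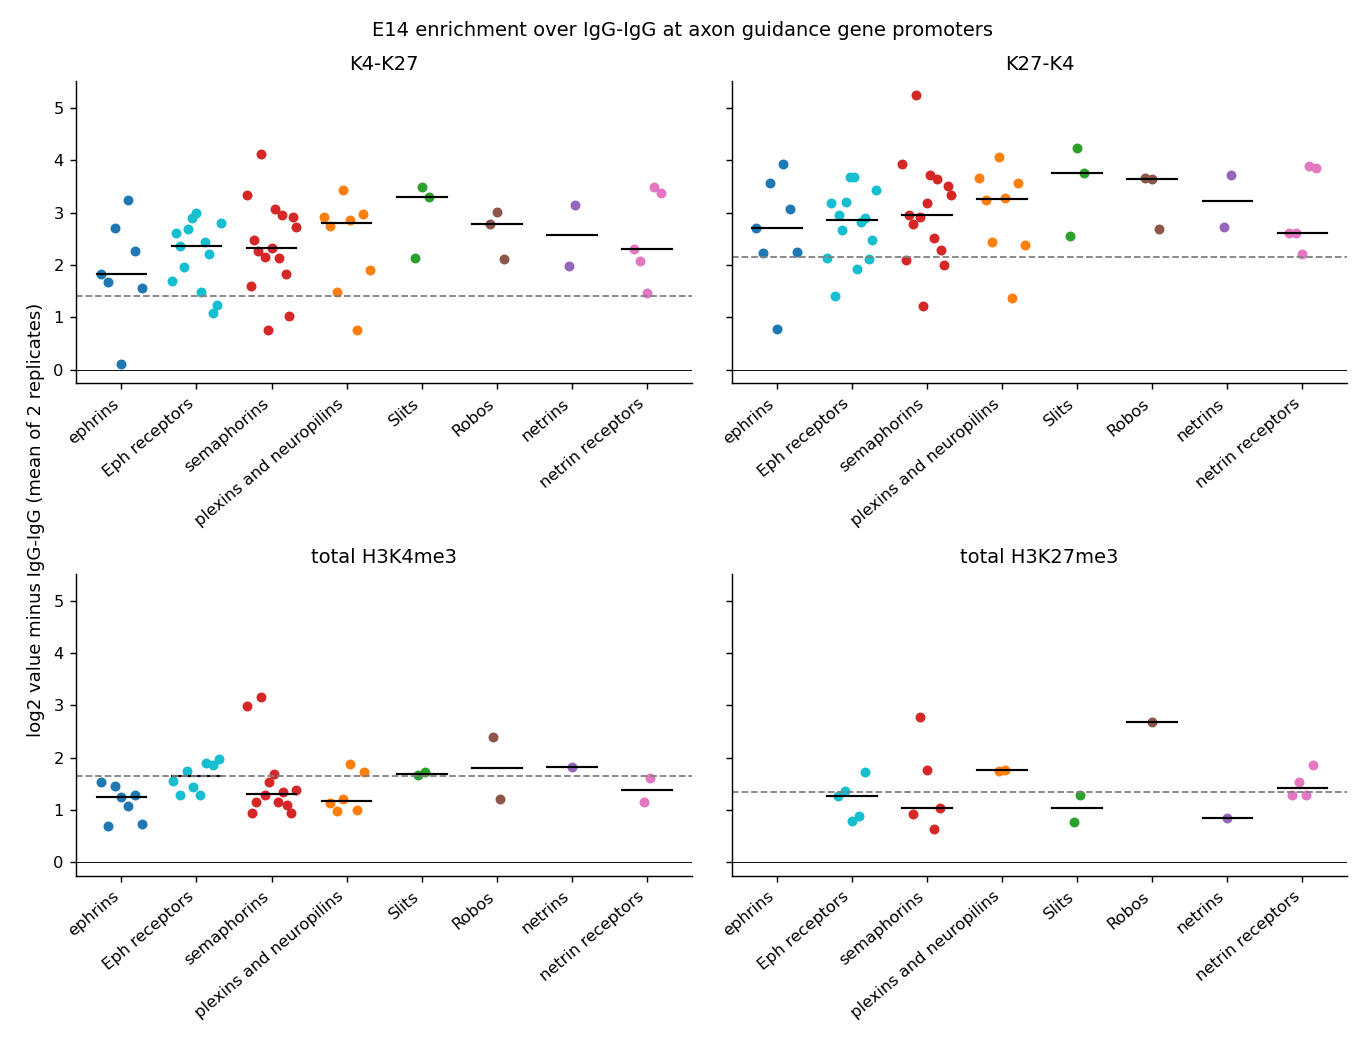
Enrichment over IgG-IgG in E14 cells (log2, mean of 2 replicates) for each member with a promoter region, by family, in the 4 ChIPs; short black bars are family medians and the dashed line is the median of all genes with a region. In K4-K27 the Slits have the highest family median (3.29) and the ephrins the lowest (1.83). In total H3K4me3 most members lie below the dashed line (member median 1.36, all genes 1.65). In total H3K27me3 the member median, 1.29, is close to it (1.35).

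Slits had the highest family median in both orders, 3.29 in K4-K27 and 3.75 in K27-K4, and ephrins had the lowest in K4-K27, 1.83. Sema3e, a repellent ligand of plexin D1, had the highest enrichment over IgG-IgG. Its K4-K27 values were 1.37 and 2.66 in the 2 replicates and its K27-K4 values 2.76 and 3.53, while its region stood at -2.10 in IgG-IgG. Its mean value was 2.01 in K4-K27, near the member median of 1.96, and 3.14 in K27-K4, against 2.597. Its enrichment was 4.12 in K4-K27 and 5.25 in K27-K4, and its top rank thus rests largely on the low IgG-IgG value. Slit2 read 2.28 and 2.93 in K4-K27, then 2.597 and 4.12 in K27-K4, with IgG-IgG at -0.88. Plxna2, a receptor of class 6 and class 3 semaphorins, read 2.05 and 2.82, then 2.29 and 3.85, with IgG-IgG at -0.99.

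At the other end stood Efna4, a membrane-anchored ligand of EphA receptors. It read -0.50 and 0.91 in K4-K27 against 0.10 in IgG-IgG, so that 1 replicate lay below the control, and 0.19 and 1.56 in K27-K4. Its total H3K4me3 value was 1.22 and 1.39 against 0.06 in IgG-IgG, and no total H3K27me3 region covered its start site. Plxnb1, the receptor of Sema4d, was similar, with 0.02 and 1.42 in K4-K27 against -0.04 in IgG-IgG. Sema4a read 0.53 and 0.46 in K4-K27, then 0.67 and 1.23 in K27-K4 against -0.26 in IgG-IgG. Efna4, Sema4a and Plxnb1 are the 3 members whose mean enrichment over both orders was lowest (0.45, 0.98 and 1.06), and the highest means were 4.68 for Sema3e, 3.86 for Slit2 and 3.74 for Plxna2. Epha2 lacked the K4-K27 region but read 0.65 and 2.05 in K27-K4, and 1.34 and 1.66 in total H3K4me3.

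The comparison of DKO with WT clones asks which of these promoters depend on Dppa2 and Dppa4 for either mark or for both together. With 1 region taken per gene, Slit1 was the 1 member called lower in DKO clones in both orders of reChIP and no member was called higher. Sema6d was called lower in K27-K4 at its upstream promoter, which also passed in K4-K27 (-2.42), where the downstream promoter was the region taken. A region was called at an absolute log2 difference above 1 with an adjusted p under 0.05 (limma, Benjamini-Hochberg over all regions of the ChIP). In K4-K27 1 of 56 members was called lower, where 2.04% of 16123 genes were, and 0% of genes were called higher. In K27-K4 2 of 55 were called lower, where 5.2% of 10067 genes were, and none higher (0.0397% of genes). These counts lie close to the shares among all genes. Without WT clone 58 the count in K27-K4 was 14 of 55, in a fit that called 16.9% of all genes lower and assumes that the lone WT clone varies like the DKO clones. Without DKO clone 43 or DKO clone 53 it was 0, where 1.43% and 1.84% of genes were called. At an unadjusted p under 0.05, 3 members were lower and 0 higher in each order, Dcc joining in both and Epha8 in K4-K27. At that p 5.64% of all genes were lower and 0.67% higher in K4-K27. For K27-K4 the shares were 11.4% lower and 2.02% higher.

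Below the threshold the member values leaned towards lower levels in DKO clones. The median difference (DKO minus WT) was -0.38 in K4-K27, against -0.07 over all genes, with 43 of 56 members and 9153 of 16123 genes below 0. In K27-K4 it was -0.28, against -0.17 over all genes, with 40 of 55 members and 6096 of 10067 genes below 0. With each library centred on its own median the member medians became -0.33 and -0.11, with 42 and 33 members below 0, and the all-gene medians -0.02 and 0.00, with 8446 and 5012 genes below 0. Both DKO clones lay below both WT clones at 11 members in K4-K27 (13.5% of all genes did) and at 16 in K27-K4 (28.3% of all genes). The opposite order held for 1 member in K4-K27 (7.1% of genes) and for 4 in K27-K4 (16.5% of genes). For the other members the clones overlapped.

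The spread between the 2 clones of a genotype was of the same size as most differences. WT clone 57 read above WT clone 58 at 53 of 56 members in K4-K27, by a median of 0.69, and at 55 of 55 in K27-K4, by 0.78. DKO clone 43 read above DKO clone 53 at 53 of 56 and 47 of 55, by medians of 0.68 and 0.29. The part of this library-wide step in the member differences was not tested beyond the centred values. Regions called in WT and in DKO tables were tested together and many overlap, so that their reads are partly shared, and these tables belong to the same clones that are compared here.

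**Figure D2:**
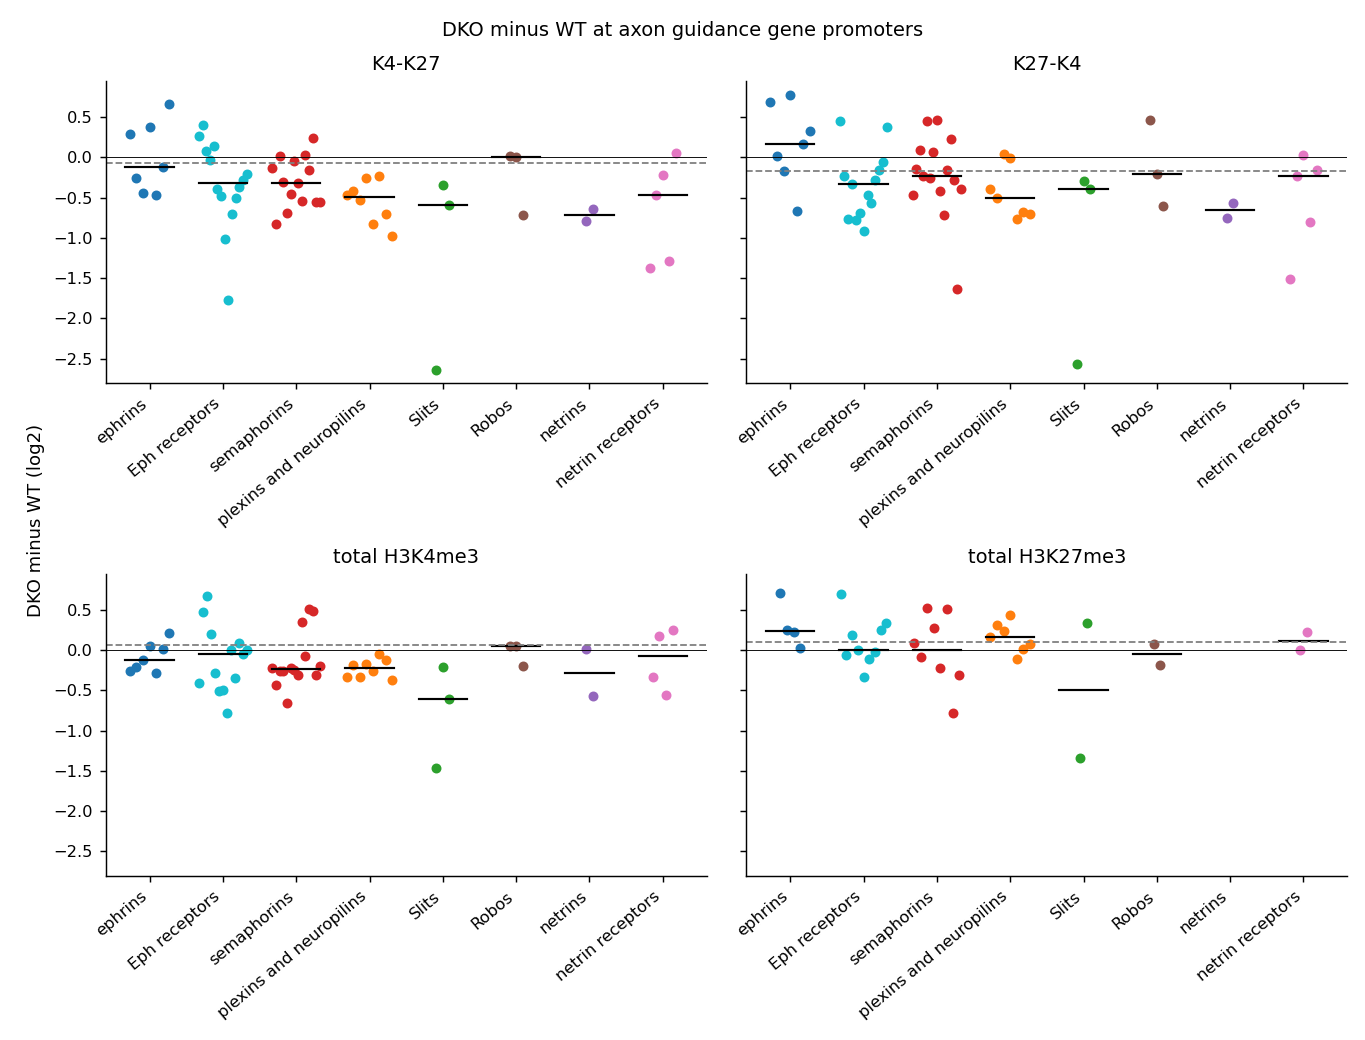
DKO minus WT difference (log2) for each member with a promoter region, by family, in the 4 ChIPs; short black bars are family medians, the solid line is 0 and the dashed line is the median of all genes with a region. Slit1 is the lowest point in all 4 panels, at -2.64, -2.56, -1.46 and -1.34, and most other members lie between -1 and 0.7.

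Among the Slits, secreted repellents that bind Robo receptors, Slit1 fell in DKO clones in both orders of reChIP, and Slit2 and Slit3 did not pass the test. In K4-K27 the Slit1 region (chr19:41741851-41744850, over the start site at 41743856 on the minus strand) read 3.29 and 2.56 in WT clones 57 and 58 and 0.19 and 0.39 in DKO clones 43 and 53. Both DKO values were at the level of IgG-IgG from WT clone 57, 0.32, and the genotypes did not overlap. The difference was -2.64 (SE 0.63, adjusted p = 0.00535, limma, n = 2 clones each), a 6.22-fold lower level. In K27-K4 the region chr19:41741851-41745450 read 3.55 and 2.62 in WT and 0.22 and 0.82 in DKO, with IgG-IgG at 0.23. The difference was -2.56 (SE 0.44, adjusted p = 1.69e-05, limma), 5.91-fold. Both regions hold 645 exon bases and otherwise intron, and no DKO reChIP table listed a region over this start site.

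Both marks taken singly were also low at Slit1 in DKO clones, with weaker evidence. Total H3K4me3 read 2.50 and 1.34 in WT and 0.27 and 0.64 in DKO (difference -1.46, adjusted p = 0.27, limma), with IgG-IgG at 0.58; it was called with centred libraries (-1.50). Total H3K27me3 read 1.61 and 1.10 in WT and -0.29 and 0.33 in DKO (difference -1.34, SE 0.42, adjusted p = 0.0499, limma), with IgG-IgG at -0.23. The clones of the 2 genotypes did not overlap in either, and the total H3K27me3 call was just inside the threshold and was lost in 10 of 14 alternative fits. Away from the promoter, 2 more Slit1 regions were called lower, both named after their values were seen: an intronic K27-K4 region 5.3 kb inside the gene (chr19:41737801-41739300, -1.88, adjusted p = 0.040, limma) and a total H3K4me3 region near the 3′ end of the gene (chr19:41599951-41601300, -1.91, adjusted p = 0.0186, limma). Among all regions tested, 2.24% were called lower in K27-K4 and 2.47% in total H3K4me3.

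On the regions of the E14 tables the Slit1 differences were -2.20 in K4-K27 and -2.08 in K27-K4 (adjusted p = 0.00246 and 1.8e-06, limma). In E14 cells the Slit1 region (chr19:41737051-41747400) read 1.96 and 1.87 in K4-K27, then 1.62 and 3.07 in K27-K4, with IgG-IgG at -0.21. Without DKO clone 43, DKO clone 53 or WT clone 57 the K4-K27 call was lost (adjusted p = 0.184, 0.156 and 0.127), and without DKO clone 43 or 53 the K27-K4 call was lost (adjusted p = 0.257 and 0.0545, limma). The differences in these 5 fits lay between -2.86 and -2.26.

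Slit2 and Slit3 had high values in every clone. Slit2 read 3.80 and 2.97 in WT and 3.52 and 2.56 in DKO in K4-K27 (difference -0.35), and 3.64, 3.03, 3.22 and 2.87 in K27-K4 (-0.29). Slit3 read 4.75 and 3.84 in WT and 4.15 and 3.25 in DKO in K4-K27 (-0.60). In K27-K4 its WT clones read 3.91 and 2.84 and its DKO clones 3.15 and 2.82 (-0.39). The clones overlapped for both genes in both orders, and the lowest adjusted p was 0.71 (limma). In the 250 bases before the start site Slit2 holds 25 CpG and Slit3 35.

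No Robo promoter region was called. Over the whole Robo1 gene, looked at after the values were seen, 1 of 7 regions was called lower in K27-K4, 1 of 15 in total H3K4me3 and 1 of 5 in total H3K27me3, where 2.24%, 2.47% and 1.78% of all regions were. Robo1, with the fifth highest mean difference of the members, read 4.05 and 2.96 in WT and 3.97 and 3.06 in DKO in K4-K27 (difference 0.01), and 2.79 and 2.10 in WT and 2.86 and 2.96 in DKO in K27-K4 (0.46, adjusted p = 0.62, limma). The DKO clones lay above the WT clones in K27-K4 by as little as 0.07. Robo2 differed by 0.01 and -0.21. Robo3, which modulates Slit responses of commissural axons, read 2.49 and 2.73 in WT and 2.06 and 1.72 in DKO in K4-K27 (-0.72). In K27-K4 its WT clones read 2.69 and 2.17 and its DKO clones 1.86 and 1.79 (-0.60). The clones did not overlap in either order, and neither difference was called.

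Among netrin receptors, Dcc and Unc5c had the lowest DKO minus WT differences, and the other 3 differed by less than 0.5. Dcc, the receptor for attraction to netrin, read 2.02 and 1.96 in WT and 0.66 and 0.56 in DKO in K4-K27 (chr18:72350251-72351450; difference -1.38, SE 0.70, adjusted p = 0.31, limma). In K27-K4 it read 1.81 and 1.31 in WT and -0.04 and 0.13 in DKO (chr18:72348601-72351900; -1.51, SE 0.48, adjusted p = 0.079, limma). The 2 WT clones were above the 2 DKO clones in both orders, IgG-IgG stood at 0.09 and -0.23, and neither difference was called, although the K27-K4 difference on E14 regions was (-1.51, adjusted p = 0.00099, limma). Besides Slit1, Dcc was the 1 member below -1 in both orders with 1 region taken per gene; Sema6d was so at its upstream promoter.

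Unc5c, a receptor for repulsion by netrin, read 4.82 and 4.04 in WT and 3.54 and 2.74 in DKO in K4-K27 (chr3:141464401-141467100; -1.29, SE 0.67, adjusted p = 0.33, limma). In K27-K4 it read 4.36 and 3.27 in WT and 3.17 and 2.86 in DKO (-0.80, adjusted p = 0.45, limma). Its DKO values were below both WT clones but, unlike those of Slit1, stayed well above IgG-IgG (1.11 and 0.99). Unc5a, Unc5b and Unc5d differed by -0.47, -0.22 and 0.06 in K4-K27 and by -0.23, 0.03 and -0.15 in K27-K4. The netrins Ntn1 and Ntn4 differed by -0.80 and -0.65 in K4-K27 and by -0.76 and -0.56 in K27-K4, and for Ntn1 the DKO clones were below the WT clones in both orders; neither was called.

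The median difference of the Eph receptors was below 0 in both orders, and that of the ephrins was nearer to 0 with opposite signs. The 14 Eph receptors had a median difference of -0.32 in K4-K27 (10 of 14 below 0) and 13 of them -0.33 in K27-K4 (11 of 13 below 0). The 7 ephrins had medians of -0.12 (4 of 7 below 0) and 0.17 (2 of 7 below 0). Centring kept the sign of these 4 medians, at -0.28, -0.16, -0.08 and 0.35. In K27-K4 the centred ephrin median thus lay farther from 0 than that of the Eph receptors. The difference between the families was not tested.

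Epha8, an EphA receptor expressed in the developing midbrain, had the second lowest K4-K27 difference of the members. It read 3.54 and 3.29 in WT and 1.66 and 1.64 in DKO (chr4:136955701-136958250; -1.77, SE 0.59, adjusted p = 0.13, limma), with IgG-IgG at 0.42, a 3.40-fold lower level without overlap of the clones. In K27-K4 the longer region chr4:136952851-136959600 read 2.64 and 2.04 in WT and 1.95 and 1.79 in DKO (-0.47, adjusted p = 0.56, limma), a smaller difference. Another K27-K4 region over the gene, 1 of 3 there and looked at after the values were seen, was called lower (-1.90), as were 2.24% of all K27-K4 regions. The K4-K27 difference was called when the libraries were centred (-1.72, adjusted p = 0.00816) and when all 16 clone reChIP and total libraries were fitted at once (adjusted p = 0.0106). Total H3K4me3 at Epha8 read 2.14 and 1.04 in WT and 0.60 and 1.01 in DKO (-0.79). This is the promoter printed above with 37 CpG in 207 bases. Its E14 K4-K27 region, chr4:136928101-136960050, spans the whole gene.

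Epha7 differed by -1.01 and -0.92, and here 1 clone set the difference. It read 4.22 and 3.40 in WT against 3.72 and 1.87 in DKO in K4-K27. In K27-K4 it read 4.16 and 3.18 in WT against 3.43 and 2.07 in DKO, so that DKO clone 43 lay between the WT clones and DKO clone 53 far below. The ligands Efna4, Efna1 and Efnb3 and the receptor Epha1 had the 4 highest mean differences over both orders. Efna4 read 2.99 and 2.09 in WT and 2.96 and 2.88 in DKO in K4-K27 (0.37), and 0.69 and 0.18 in WT and 1.19 and 1.22 in DKO in K27-K4 (0.78, adjusted p = 0.36, limma), where IgG-IgG stood at 0.45, with the WT values on either side of it. Efna1 read 2.38, 2.15, 2.77 and 2.34 in K4-K27 (0.29), and 2.51 and 1.89 in WT and 3.03 and 2.74 in DKO in K27-K4 (0.68, adjusted p = 0.44, limma). Both DKO clones were above both WT clones at Efna4 and Efna1 in K27-K4, and no adjusted p was under 0.3. The Efna4 region in K27-K4 was listed for the DKO clones only. Its higher DKO value there is thus partly set by the choice of regions, as at any region listed for 1 genotype only. Efnb3 differed by 0.66 and 0.32, and Epha1 by 0.26 and 0.45, with overlapping clones.

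**Figure D3:**
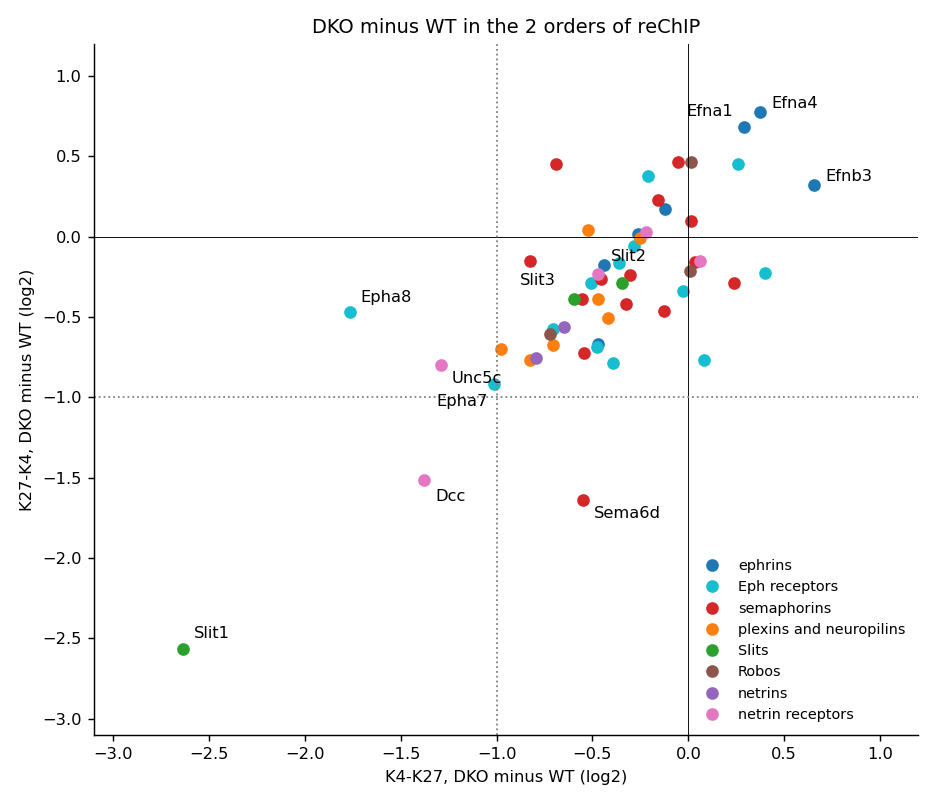
DKO minus WT difference (log2) in K27-K4 against K4-K27 for the 54 members with a region in both, coloured by family; dotted lines mark -1. Slit1 lies far from the rest at the lower left, Dcc is the other point below -1 in both orders, the K4-K27 value of Sema6d comes from another promoter than its K27-K4 value, and Efna1, Efna4 and Efnb3 lie at the upper right.

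Taking both orders side by side, 34 of 54 members were below 0 in both, 6 above 0 in both and 14 of opposite sign. The Pearson r of the 2 differences over the members was 0.73 and the Spearman rho 0.67, given as a description: the orders come from the same 4 clones and members are not independent replicates. The median of the mean difference was -0.33, and 36 members lay within 0.5 of 0.

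**Figure D4:**
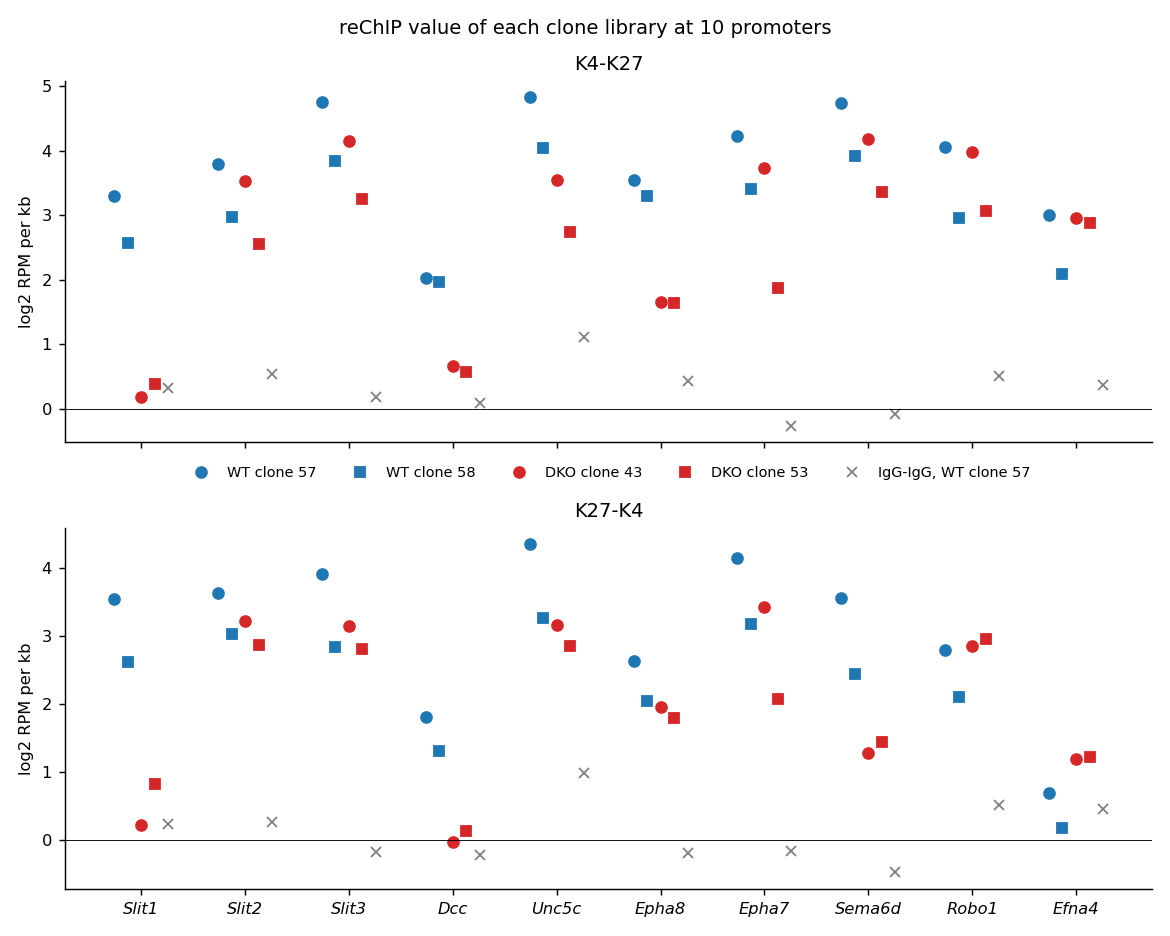
Value of each clone library (log2 RPM per kb) at 10 members in K4-K27 (top) and K27-K4 (bottom), with WT clones in blue, DKO clones in red and IgG-IgG of WT clone 57 as grey crosses. At Slit1 and Dcc the DKO clones sit near IgG-IgG or a little above it in both orders. At Slit2 and Slit3 they stay with the WT clones, and at Epha7 1 of the 2 DKO clones is low.

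Semaphorins had a median difference of -0.31 in K4-K27 (11 of 14 below 0) and -0.24 in K27-K4 (10 of 15 below 0), and Sema6d, a membrane-bound semaphorin that signals through plexin A1, was the 1 called. It differed by promoter. Sema6d has 3 annotated promoters, and 2 of them carried reChIP regions. The upstream promoter, with its start site at chr2:124089969 on the plus strand, is the one printed above. In K27-K4 its region (chr2:124088401-124092150, 293 exon bases, the rest intron or upstream) read 3.56 and 2.45 in WT and 1.28 and 1.45 in DKO. The DKO clones were below both WT clones and above IgG-IgG at -0.48, and the difference was -1.64 (SE 0.46, adjusted p = 0.0338, limma), 3.12-fold. The overlapping region from the DKO table (chr2:124089001-124091850) differed by -1.64 with an adjusted p of 0.0549 (limma), just outside the threshold. The Sema6d call was lost in 7 of 14 alternatives, among them the fits without DKO clone 43 and without DKO clone 53 (adjusted p = 0.618 and 0.568, limma).

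In K4-K27 the region rule took the downstream promoter, 520 kb further on. There the values were 4.74 and 3.91 in WT and 4.19 and 3.36 in DKO, a difference of -0.55 (adjusted p = 0.85, limma). The K4-K27 region at the upstream promoter, chr2:124089601-124091550, was looked at after the values were seen. It read 4.03 and 3.21 in WT and 0.55 and 1.86 in DKO, a difference of -2.42 (SE 0.59, adjusted p = 0.00646, limma), and passed the threshold that 1.19% of all K4-K27 regions passed in that direction. Total H3K4me3 at the upstream promoter read 2.47 and 1.32 in WT and -0.58 and 0.43 in DKO (-1.97, adjusted p = 0.0304, limma), and total H3K27me3 read 1.57 and 1.052 in WT and 0.39 and 0.67 in DKO (-0.78, adjusted p = 0.35, limma).

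At the downstream promoter the difference was -0.42 in K27-K4, -0.31 in total H3K4me3 and 0.10 in total H3K27me3, and none was called. The 2 promoters of 1 gene thus gave different values in the same libraries, in both orders of reChIP; the difference between promoters was not tested. The rank of Sema6d in the figures follows the region rule. Of 7 members with promoters more than 3 kb apart, 3 had regions at 2 or more promoters in both orders: Sema3f, Sema6c and Sema6d. Sema3f was read on 1 shared region in K27-K4 and on overlapping regions in K4-K27, so its promoters could hardly differ. The DKO minus WT differences of the Sema6c promoters lay 1.49 apart in K4-K27 and 0.06 in K27-K4. Those of Sema6d lay more than 1 apart in both orders, with Sema6c as the 1 other member read on separate regions. In E14 cells the rule took the upstream promoter, where the K4-K27 values were 1.96 and 2.19 and the K27-K4 values 2.01 and 3.33 against -0.83 in IgG-IgG.

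**Figure D5:**
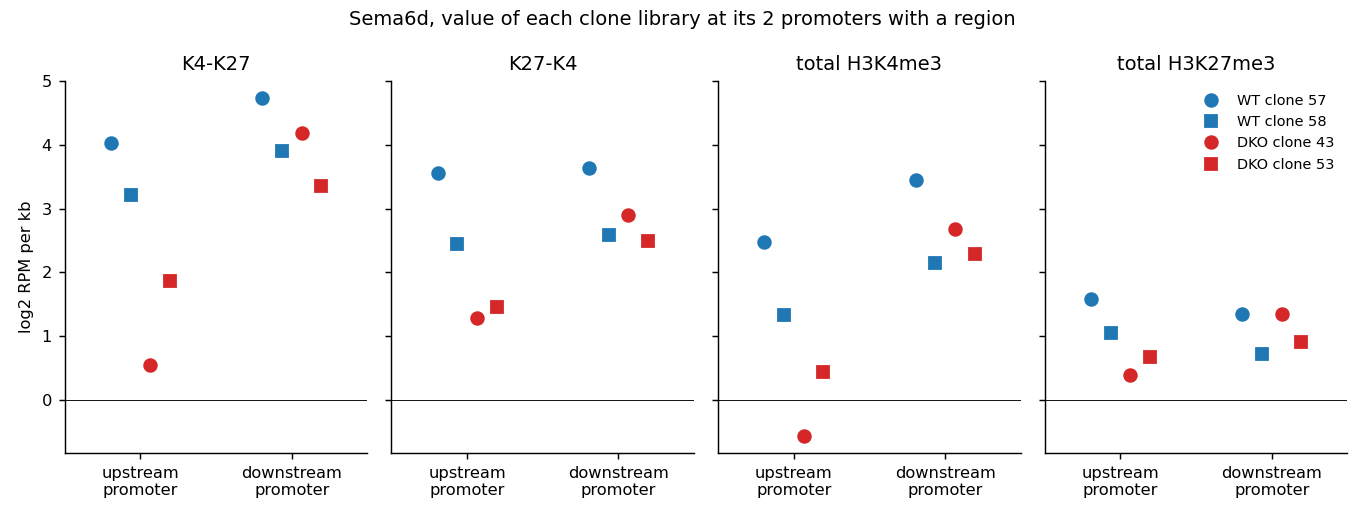
Value of each clone library (log2 RPM per kb) at the upstream and the downstream Sema6d promoter in the 4 ChIPs, with WT clones in blue and DKO clones in red. At the upstream promoter both DKO clones lie below both WT clones in all 4 panels, by -2.42 in K4-K27 and -0.78 in total H3K27me3, and at the downstream promoter the genotypes are closer.

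The other semaphorins were not called in either order. Sema3e, with the highest E14 enrichment over a low IgG-IgG value, read 3.19 and 2.72 in WT and 2.42 and 2.12 in DKO in K4-K27 (-0.69, without overlap). In K27-K4 it read 2.24 and 1.54 in WT and 2.59 and 2.11 in DKO (0.45), so that the 2 orders had opposite signs. Sema3b differed by -0.82 in K4-K27 and -0.15 in K27-K4. Sema5b, an axon repellent of the retina, read 4.73 and 4.14 in WT and 4.33 and 3.45 in DKO in K4-K27 (-0.54), and 3.82 and 3.03 in WT and 2.77 and 2.64 in DKO in K27-K4 (-0.72). Sema4d stood at the other end of the family in K27-K4, with 2.51 and 2.10 in WT and 3.02 and 2.52 in DKO (0.47).

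Their receptors, the plexins and neuropilins, were below 0 at 8 of 8 members in K4-K27 (median -0.50) and at 6 of 7 in K27-K4 (median -0.50). Centred, these became 8 of 8 (-0.45) and 5 of 7 (-0.33). None was called. Plxnd1, the receptor of Sema3e, read 3.87 and 3.51 in WT and 3.04 and 2.39 in DKO in K4-K27 (-0.98), and 4.05 and 3.06 in WT and 2.97 and 2.74 in DKO in K27-K4 (-0.70). Plxna4 differed by -0.83 and -0.77 and Plxnc1, the receptor of Sema7a, by -0.71 and -0.67. For Plxnd1, Plxna4 and Plxnc1 the DKO clones were below both WT clones in both orders, and the lowest adjusted p was 0.406 (limma). The neuropilins Nrp1 and Nrp2 differed by -0.47 and -0.42 in K4-K27 and by -0.39 and -0.50 in K27-K4, with overlapping clones.

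In the total libraries, with 1 region taken per gene, Slit1 was again the member with the lowest difference, although the upstream Sema6d promoter, which is not the region taken, was lower in total H3K4me3 (-1.97) and was called. Among the regions taken, no member was called in total H3K4me3 (limma; 0 of 54, against 2.6% of 16175 genes lower and 0% higher), and at an unadjusted p under 0.05 Slit1 was the 1 lower member and 0 were higher (5.09% and 0.229% of genes). The median difference was -0.21, against 0.07 over all genes, with 38 of 54 members and 6230 of 16175 genes below 0. The DKO clones were below the WT clones at 3 members (8.08% of genes) and above at 1 (1.95% of genes). WT clone 57 exceeded WT clone 58 by a median of 1.25 in this ChIP, at 54 of 54 members. In total H3K27me3 Slit1 was the 1 of 34 members called lower (2.5% of 5568 genes), and none was called higher (0.251% of genes), nor was any higher at an unadjusted p under 0.05 (3.65% of genes). The median difference was 0.09, against 0.10 over all genes. The DKO clones lay below the WT clones at Slit1, Sema6d and Sema7a (14.9% of genes) and above them at 5 members (23.2% of genes). Among all total H3K27me3 regions 1.78% were called lower.

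The orders of reChIP were then compared within the same cells. In E14 cells the mean of the 2 replicates was higher in K27-K4 than in K4-K27 at all 56 members, as at 15209 of 15305 genes, with a median difference (K27-K4 minus K4-K27) of 0.61, against 0.82 over all these genes. The lean came mostly from replicate 2: over 52 members the median was 0.19 in replicate 1, where 19 were below 0, and 1.10 in replicate 2, where 0 were. None was called by limma (0 of 56 in either direction, also 0 at an unadjusted p under 0.05), and 0% of genes were. With the replicate as a block 1 member, Ephb4, was called higher (12% of genes higher, 0% lower). In the WT clones the median was -0.05 over 53 members, against -0.37 over 8040 genes. Epha2 was called lower, at 3.50 and 3.02 in K4-K27 but 1.56 and 1.23 in K27-K4 (-1.86, SE 0.58, adjusted p = 0.0184, limma), where 17% of genes were called lower and 0.0124% higher; the call was lost without any 1 of the 4 libraries. With the clone as a block 4 members, Epha2, Ephb3, Ephb4 and Robo1, were called lower (29.6% of genes), and none higher (0.348% of genes).

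Values in E14 and in the clones cannot be compared as levels of the cells, because the E14 and clone libraries come from separate experiments, and experiment and cell stock cannot be told apart. Read side by side on the E14 regions, the median member level in K4-K27 was 1.96 in E14, 2.52 in WT and 2.15 in DKO, and in K27-K4 2.597, 2.21 and 2.19. In total H3K4me3 it was 1.31, 2.35 and 2.20 and in total H3K27me3 0.63, 1.15 and 1.32. On these regions DKO lay below WT in K4-K27 at 41 of 56 members and 8911 of 15363 genes. For K27-K4 it did so at 41 of 57 members and 8735 of 17321 genes. At Slit1 the E14 region read 1.78 and 1.22 in WT and -0.79 and -0.61 in DKO in K4-K27, with IgG-IgG of WT clone 57 at -0.15.

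Other genes of the pathway were read from lists fixed with the members. Of 19 further guidance ligands and receptors and 34 cytoplasmic effectors, 16 and 33 had a K4-K27 region and 15 and 23 a K27-K4 region, and 0 were called in any of the 4 ChIPs (limma). At an unadjusted p under 0.05 the effectors Ablim1 (K4-K27, lower), Pak3 (total H3K4me3, lower) and Nck2 (total H3K27me3, higher) passed. The further ligands and receptors had median differences of -0.21 (K4-K27) and -0.09 (K27-K4), and the effectors of -0.13 and 0.06.

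The cell labels were read against promoter marks, since no expression was measured here. All 8 pluripotency genes had total H3K4me3 regions in E14 and in the clones, and their median DKO minus WT difference there was 0.27, with 7 of 8 above 0. The 6 neural and neuronal genes had median differences of -0.06 in K4-K27 and 0.19 in K27-K4 (5 with a region), and none was called. At active housekeeping promoters the clone K4-K27 libraries were not at background: Actb read 3.10 and 2.15 in WT on E14 regions, the range of many members, and 0.24 and 0.07 in K27-K4. Over all genes the median WT level in K4-K27 on these regions was 2.22, close to the 2.52 of the members, while in K27-K4 it was 0.41 against 2.21. Dppa2 and Dppa4 differed by 0.37 and 0.10 in total H3K4me3 at their promoters, which need not lie in the deleted part and so check no label. The median DKO minus WT difference by chromosome ranged from -0.11 to 0.17 in K4-K27 and from -0.30 to 0.12 in K27-K4.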

How the data were processed

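Values were taken from 12 deposited tables for 26 libraries (9 from E14 and 17 from WT and DKO clones), with 240 of 272 value columns used and 32 not used. The authors deposited log2 values per region, counted in SeqMonk 1.48.1 as RPM per kb over mm10, from primary alignments with a MAPQ filter, each read extended in length, with 0 reads entered as 0.9 reads; duplicates were kept and IgG-IgG was not subtracted. Per the submitters' processing notes, reads were trimmed with Trim Galore 0.6.6 and aligned with BWA 0.7.13. Per the study's methods, regions were called for each replicate with EPIC2 against IgG-IgG, filtered on fold enrichment and false discovery rate, cleared of blacklisted regions and intersected between replicates. It is uncertain whether the deposited regions are those calls: their lengths do not follow the bin size given there, the E14 reChIP tables hold 24540 (K4-K27) and 36235 (K27-K4) regions, more than the peak sets the study describes, and the submitters' processing notes also name MACS2. A region here means a row of such a table. In the E14 tables, values under 100 reads came out as whole reads (within 0.05 of a read, or 0.9 for 0 reads) once the scaling was undone; higher values were not checked.

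DKO and WT clones were compared, over the regions of the WT and DKO tables together, with limma 3.58.1 (R 4.3.3; eBayes with trend and robust) on the deposited log2 values. P-values were adjusted over all regions by Benjamini-Hochberg, and 1 region per gene was then taken as described. K27-K4 and K4-K27 were compared in E14 on the 21857 regions with the same coordinates and in WT on 12025 regions overlapping by at least 1 bp, of which 332 had the same coordinates, and both orders were read on the coordinates of the K4-K27 region. Libraries of 1 replicate number share a batch (E14) or a clone (WT), and their deviations correlated at 0.193 and 0.109, so the fit with the replicate as a block is given beside the orientation counts. With 2 clones per genotype, each p-value sets the difference against a spread between clones that limma partly shares over all regions.

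Genes named were those called, the 5 lowest and 5 highest in mean DKO minus WT difference over both orders, the 3 highest and 3 lowest in E14 reChIP enrichment, those without an E14 reChIP region and those called between orders; other members were named after their values were seen. Pluripotency, neural and housekeeping marker lists and 2 lists of other pathway genes were read in the same way. The members and lists were chosen with earlier results of these data known. The fit was tested on simulated data. Depth ranged from 6741244 to 47903462 reads per library. Promoter features were counted in Python 3.11.15 from RefSeq promoters of GRCm38.p6.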

Additional observations from a re-analysis of the deposited data

Results flagged for a closer look

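Of 52 members with regions for both orders in both cell sources, 16 had K27-K4 above K4-K27 in both E14 replicates and below it in both WT clones. They were Efnb2, Epha7, Ephb2, Ephb3, Ephb4, Ephb6, Sema3c, Sema3e, Sema3f, Sema4d, Sema6c, Sema6d, Plxna1, Plxna2, Robo1 and Unc5b. Sema6d was read at its upstream promoter in E14 and at its downstream promoter in WT, so its opposite signs come from different promoters. That is 30.8% of the members, where 54.8% of 7844 genes had opposite signs in the same way. A further 7 members had the same sign in all 4 pairs of libraries. The median member difference was 0.19 and 1.10 in the E14 replicates and 0.07 and -0.22 in WT clones 57 and 58, against 0.40, 1.02, -0.31 and -0.43 over all genes. The difference between the cell sources was not tested, and experiment, cell stock and region choice cannot be told apart.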

How the results depend on the processing

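The reChIP differences of Slit1 kept their direction in all 14 alternatives, from -3.001 to -2.20 in K4-K27 and from -3.03 to -2.08 in K27-K4, and lost the call in 3 of them in each order. The number of members called lower in K4-K27 was 2 instead of 1 with centred libraries (2.53% of genes) and on E14 regions (3.02%). The same count came with all 16 clone libraries in 1 fit (4.89%) and at the most 5′ start site (2.02%). The call was not always kept when a clone was left out. In K27-K4 the number was 1 instead of 2 with centred libraries (4.1% of genes) and in the fit of 16 (3.43%). So it was with promoters of 5 kb either side (5.16%) and with DKO regions kept only where they overlapped no WT region (3.91%). Plain eBayes gave 0 (1.13%), and leaving out a clone could change the number widely. In total H3K4me3 it was 1 instead of 0 with centred libraries (5.31% of genes) and at the most 5′ start site (2.58%). Leaving out a clone could also change it. In total H3K27me3 it was 0 instead of 1 with centred libraries and in the fit of 16, which each called 0% of genes lower. It was also 0 with plain eBayes (1.51% of genes), the lowest quartile left out (1.32%), E14 regions (1.9%) and the reduced DKO regions (0.772%). The Slit1 call there was not kept when any clone was left out. Between orders, the replicate block gave 1 call in E14 instead of 0, where 12% of genes were called higher. In WT it gave 4 instead of 1, where 29.6% of genes were called lower, against 17% in the main fit. Centring gave 3 in WT, with and without the block, and the share of genes was not counted for it. The WT call was not kept when a library was left out. The replicate block changed no other call. Without subtraction of IgG-IgG the E14 member medians were 1.96 in K4-K27 and 0.63 in total H3K27me3. The cause of these shifts was not tested.

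Some differences changed sign when a clone was left out, and their ranges over the 4 such fits follow. In K4-K27 they ran from -0.54 to 0.56 at Robo1, from -0.21 to 0.73 at Epha1 and from -0.079 to 0.83 at Efna4, and in K27-K4 from -0.053 to 0.70 at Efnb3. In total H3K4me3 they ran from -0.74 to 0.85 at Robo1, from -0.59 to 0.70 at Efna4, from -0.021 to 0.45 at Efnb3, from -0.96 to 0.34 at the downstream Sema6d promoter, from -1.30 to 0.19 at Unc5c, from -0.86 to 0.037 at Epha1 and from -0.92 to 0.39 at Efna1. In total H3K27me3 the range was -0.39 to 0.17 at Epha8. With the chromosome median taken off, total H3K4me3 read -0.051 at Robo1 and -0.025 at Efna4. The 5′ start site and the reduced DKO regions were chosen after seeing the data. With 2 clones per genotype and 1 IgG-IgG library per cell source, many differences under 1 on the log2 scale could not be told from the spread between clones.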
